A study of Mus musculus with 4 samples.

Results

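Hemidesmosomes and the basement membrane anchor the basal layer of the epidermis to the dermis. The 9 genes described here encode the adhesion proteins of that junction: the integrin chains Itga6, Itgb4, Itga3 and Itgb1, the transmembrane collagen Col17a1, the plaque proteins Dst and Plec, and the laminin-332 chains Lama3 and Lamb3. They were chosen by name, with earlier results of these data known, and each matched 1 row of the 56493 genes in the deposited table, of which 17179 had a count in any library. The mice of the series lack the calcium sensors STIM1 and STIM2 in epithelium. The knockout group (cKO, 2 libraries) carries deletions of Stim1 and Stim2 made by a Cre recombinase under the keratin 14 promoter, which is active in basal keratinocytes and hair follicle epithelium, so that melanocytes, immune cells and dermal cells are not targeted. The control group (2 libraries) consists of mice with floxed Stim1 and Stim2 alleles, and the floxed alleles are shared by both groups. RNA came from the epidermal layer of dorsal skin, freed from the dermis with sodium thiocyanate. Age, sex and the number of mice per library are not given in the sources used here, so p-values measure the spread between these libraries, which may be technical.

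The α6β4 integrin is the core of the hemidesmosome. Outside the cell it binds laminin-332, which contains the products of Lama3 and Lamb3, together with collagen XVII from Col17a1. Inside the cell it holds plectin and the epithelial form of dystonin (BP230, from Dst), which attach keratins 5 and 14. The α3β1 integrin also binds laminin-332 but links to actin through focal adhesions. Inherited loss of α6β4, collagen XVII, plectin, BP230 or laminin-332 makes the skin fragile and prone to blisters. Calcium drives keratinocytes out of the basal layer, and basal integrins normally decrease as the cells move upward.

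The libraries were shallow, with total counts from 118858 (cKO replicate 2) to 322426 (control replicate 2), a 2.71-fold range. Levels are given as CPM, counts scaled to a common library size after normalisation, on which the 3 counts that a library with none observed could still hold correspond to 9.58 to 33.7 CPM. Intervals for single libraries cover only counting error. Both targeted genes had lower normalised levels in each cKO library than in each control, and Stim1 did not pass the test. Of all tested genes, 19.6% were separated in that direction. For Stim2 the nearest values, 11.2 CPM in cKO replicate 2 and 16 CPM in control replicate 1, rested on 1 and 3 counts. Stim1 had cKO counts of 23 and 6 and control counts of 24 and 62 (edgeR adjusted p 0.671), and Stim2 had cKO counts of 0 and 1 and control counts of 3 and 18, which left it under the count filter and untested. The reads come from transcript 3' ends, and the labels do not say whether the deleted exons lie there. Of the epidermal markers examined, all 4 basal (Krt5, Krt14, Krt15, Trp63) and all 4 suprabasal genes (Krt1, Krt10, Krtdap, Sbsn) were detected. Of 5 endothelial genes, Cdh5, Kdr and Emcn were at 0 in every library, and Pecam1 and Tek had at most 1 count in any library. Summed Langerhans cell and macrophage markers, by contrast, reached 926 and 2529 CPM in cKO and 3148 and 1807 CPM in control. Most of these counts came from Cd74, H2-Aa and H2-Ab1. Cd207 had cKO counts of 1 and 0 and control counts of 8 and 10. Adgre1 had 0 and 0 against 0 and 7, and Csf1r had 2 and 0 against 0 and 4. The library cKO replicate 2 stood apart in composition. Pseudogenes took 29.6% of its counts and 12.1% to 19.2% in the other libraries. Its summed fibroblast markers reached 607 CPM, against 36.4 CPM in cKO replicate 1 and 102 and 160.1 CPM in the controls. Of the 6 fibroblast genes, 5 had a count in any library. Pdgfra was at 0 in every library, and Lum had counts only in control replicate 1.

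None of the member genes passed the test of a difference between the genotypes. With edgeR's quasi-likelihood test, 0 of 7 tested members had an adjusted p under 0.05 in either direction. Of all 4243 genes tested, 0.66% were higher and 0.189% lower in cKO by that rule, 0.848% in all. At an unadjusted p under 0.05 there was 1 member, Plec, where the background was 8.39%. DESeq2 called 0 members, with 0 at an unadjusted p under 0.05, and limma-voom called 0, with 2 (Plec and Itgb1). The median log2 fold change (cKO against control) was 0.075 over the 7 tested members and 0.0070 over all genes tested. The fitted values of Itga6 and Dst, just above 0 in edgeR, were below 0 with limma-voom. Itga3 and Lama3 had too few counts for the filter and are described by their counts.

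What the members did show was a wide gap between the 2 cKO libraries. Summed over the 9 genes, their share of all counts was 0.254% in replicate 1 of the cKO group (0.236% to 0.273%, 95% Wilson interval) and 0.0724% in its replicate 2 (0.0586% to 0.0893%). The controls lay between these, at 0.23% (0.21% to 0.252%) for replicate 1 and 0.181% (0.167% to 0.196%) for replicate 2. The cKO group thus held both the highest and the lowest share, with intervals that did not touch each other. Dst, Itga6 and Plec supplied 72.1% to 88.3% of the member counts of each library.

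**Figure D1:**
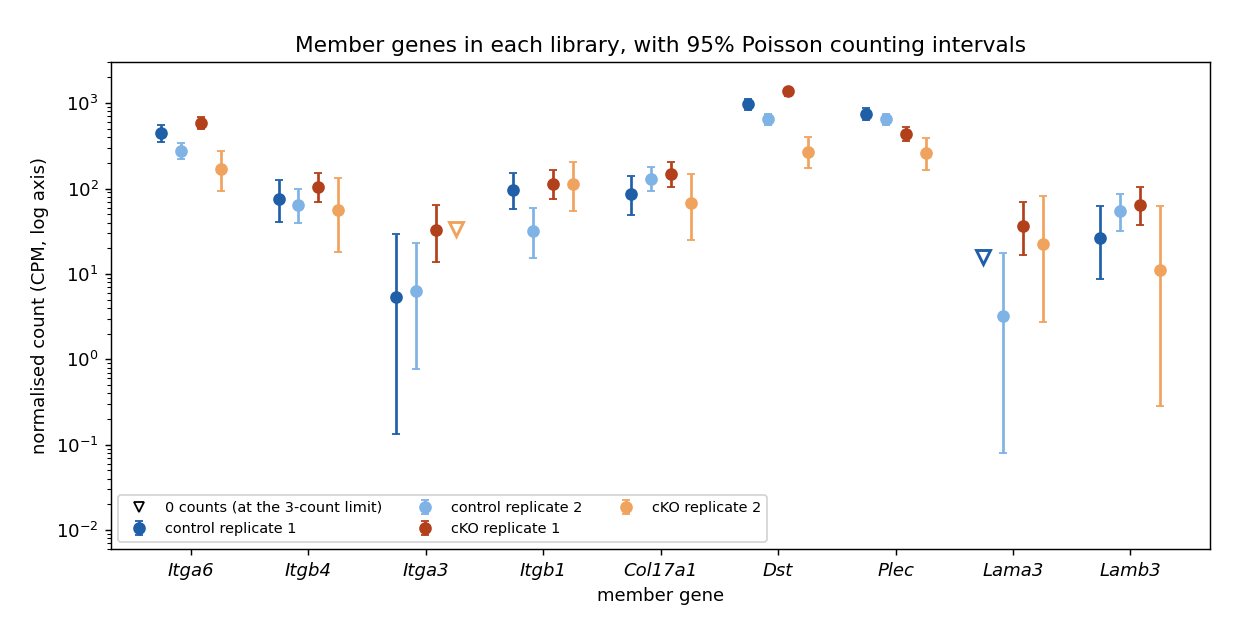
Normalised counts (CPM, log axis) of the 9 member genes in each of the 4 libraries, with 95% Poisson intervals for counting error. Open triangles mark libraries with 0 counts, drawn at the limit of 3 counts. For Dst and Itga6 the 2 cKO libraries lie on either side of both controls, while for Plec both cKO libraries lie below both controls; heights of different genes are not to be compared, since gene lengths and 3' ends differ.

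The laminin receptor of the hemidesmosome was examined first. Itga6 (ENSMUSG00000027111, chromosome 2, 71575960 to 71688760, plus strand; coordinates are those of the deposited table, for which the submitters' processing notes name GRCm39) encodes the α6 chain. It had cKO counts of 145 and 15 and control counts of 83 and 87. On the CPM scale these were 586 and 169 in cKO and 443 and 278 in control, so the groups overlapped and the cKO libraries held both extremes. The counting intervals of the cKO libraries, 495 to 690 and 94.4 to 278.04 CPM, did not meet. It averaged 377 ± 295 CPM (SD, n = 2) in cKO, against 360.4 ± 117 CPM (SD, n = 2) in control. The log2 fold change of Itga6 was 0.13 (standard error, SE, 0.53, 95% interval -1.02 to 1.29, edgeR adjusted p 0.992), an interval that runs from 0.494-fold to 2.44-fold. Without cKO replicate 1 the log2 fold change was -1.13, and without cKO replicate 2 it was 0.72.

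Itgb4 (ENSMUSG00000020758, chromosome 11, 115865535 to 115899238, plus strand) encodes the β4 chain, whose long cytoplasmic tail carries the plectin binding sites. Its counts were 26 and 5 in cKO and 14 and 20 in control, or 105 and 56.2 CPM against 74.7 and 63.9 CPM. The control values lay inside the cKO range. The log2 fold change was 0.30 (SE 0.61, 95% interval -1.01 to 1.62, edgeR adjusted p 0.988). Since α6 and β4 chains pair, the ratio of their counts was taken within each library, where library size cancels. The ratio of Itgb4 to Itga6 counts was 0.179 and 0.333 in cKO and 0.169 and 0.23 in control. The groups overlapped, and the exact interval of cKO replicate 2, 0.0948 to 0.965, covered the ratio of every other library. The mean difference in log2 ratio (cKO minus control) was 0.31 (two-sided exact permutation test, p = 0.667, where 2 libraries against 2 cannot give less than 0.333).

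The α3β1 integrin, which links laminin-332 to actin, was examined next. Itgb1 (ENSMUSG00000025809, chromosome 8, 129412135 to 129459681, plus strand) encodes the β1 chain shared by α3β1 and several other integrins. It had cKO counts of 28 and 10 and control counts of 18 and 10. These are 113 and 112 CPM in cKO against 96.1 and 31.9 CPM in control, so that both cKO values lay above both control values. Among all tested genes, 18.9% were separated in that direction and 38.5% in either. The 2 cKO libraries, which differed widely for Itga6, were nearly equal for Itgb1, and here the controls differed 3.01-fold. The log2 fold change of Itgb1 was 0.87 (SE 0.65, 95% interval -0.52 to 2.27, edgeR adjusted p 0.830), a difference within the spread between replicates. It rested on control replicate 2, without which it was 0.25, while without control replicate 1 it was 1.80.

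Itga3, the α3 chain, had cKO counts of 8 and 0 and control counts of 1 and 2. Only cKO replicate 1 exceeded 3 counts, with 32.3 CPM (95% Poisson interval 14 to 63.7). The same interval for the 0 of cKO replicate 2 reaches 41.5 CPM. A difference in Itga3 was not detectable at this depth (unadjusted p 0.279 when fitted without a count filter). The Itgb1 to Itga3 ratio could not be compared between the groups because of that 0.

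Collagen XVII, the product of Col17a1 (ENSMUSG00000025064, chromosome 19, 47634783 to 47680533, minus strand), spans the basal membrane and reaches into the basement membrane. Col17a1 had cKO counts of 37 and 6 and control counts of 16 and 41. The values were 149.6 and 67.4 CPM in cKO and 85.4 and 131 CPM in control, so again the cKO libraries held the highest and the lowest value. The means were nearly equal, 108.5 ± 58.1 CPM (SD, n = 2) in cKO against 108.2 ± 32.2 CPM (SD, n = 2) in control. The log2 fold change was 0.075 (SE 0.55, 95% interval -1.11 to 1.26, edgeR adjusted p 0.997). These data do not exclude a change of 0.464-fold or of 2.39-fold in Col17a1.

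Of the plaque proteins, dystonin and plectin are both plakins, large linkers of the cytoskeleton, and their genes also make forms used in nerve and muscle. Counts in the table are per gene, so the epithelial forms were not separated from the others. Dst (ENSMUSG00000026131, chromosome 1, 33947306 to 34347742, plus strand), with 41601 exon bases in the table, had cKO counts of 339 and 24 and control counts of 182 and 203. The normalised values were 1371 and 269.7 CPM in cKO against 971 and 648 CPM in control. The cKO libraries differed 5.08-fold, lay on either side of the controls, and had counting intervals (1229 to 1525 and 173 to 401 CPM) outside those of both controls. Their means, 820.2 and 809.7 CPM, were close all the same. The fitted log2 fold change of Dst was 0.057 (SE 0.59, 95% interval -1.21 to 1.33, edgeR adjusted p 0.997). It was -1.62 without cKO replicate 1 (adjusted p 0.242) and 0.77 without cKO replicate 2.

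Of the 7 members tested in the main edgeR fit, Plec had the lowest p, and its level was lower in both cKO libraries. Plec (ENSMUSG00000022565, chromosome 15, 76055174 to 76116774, minus strand, 18113 exon bases) had cKO counts of 109 and 23 and control counts of 141 and 203. These are 441 and 258 CPM in cKO and 752 and 648 CPM in control, so both cKO values lay below both control values, a separation that 19.6% of all tested genes showed in that direction. The cKO mean of 349.6 ± 129 CPM (SD, n = 2) was 49.9% of the control mean of 700.3 ± 73.6 CPM (SD, n = 2). The log2 fold change was -0.97 (SE 0.44, 95% interval -1.92 to -0.024), with an unadjusted p of 0.0453 and an adjusted p of 0.581 (edgeR). It stayed negative with each library left out, from -1.48 without cKO replicate 1 to -0.66 without cKO replicate 2. Its unadjusted p was not under 0.05 with DESeq2, with the replicate number as a block, or without control replicate 1, control replicate 2 or cKO replicate 2.

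Summed skeletal muscle markers were also lower in both cKO libraries than in both controls. All 6 genes of the marker list (Acta1, Myh4, Myh1, Ckm, Tnnc2, Mylpf) had a count. Their summed level was 1222 and 763 CPM in the controls and 44.5 and 135 CPM in cKO. Between the cKO libraries they ran opposite to Plec, which was higher in replicate 1 (441 CPM) than in replicate 2 (258 CPM). Of the 4 muscle genes that were tested, 3 were lower in cKO by edgeR. Plectin is abundant in muscle, and the part of muscle RNA in the Plec difference was not tested. In bulk epidermis, fewer cells of a type and less RNA per cell cannot be told apart. Exons of Plec share 205 bases with Parp10 on the same strand, which had 1 and 11 counts in the controls and 8 and 0 in cKO.

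The laminin chains were near the detection limit. Lamb3 (ENSMUSG00000026639, chromosome 1, 192890007 to 193026186, plus strand), the β3 chain, had cKO counts of 16 and 1 and control counts of 5 and 17. At 64.7 and 11.2 CPM in cKO and 26.7 and 54.3 CPM in control, the groups overlapped and cKO held both extremes. The fitted log2 fold change was 0.073 (SE 0.87, 95% interval -1.80 to 1.94, edgeR adjusted p 0.997), the widest interval of the 7 tested members. Lama3, the α3 laminin chain on chromosome 18, had cKO counts of 9 and 2 and control counts of 0 and 1. Both cKO values of Lama3, 36.4 and 22.5 CPM, lay above the control values of 0 and 3.19 CPM. Among tested genes, 18.9% were separated in that direction. The counting interval of cKO replicate 2, 2.72 to 81.2 CPM, overlapped those of the controls, which reached 19.7 and 17.8 CPM. Since 3 of the 4 libraries were at or under 3 counts, no fold is given. Fitted without a count filter, Lama3 had an unadjusted p of 0.0250 and an adjusted p of 0.911 (edgeR). For Lama3 and Lamb3, the counts did not resolve a difference between the genotypes.

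**Figure D2:**
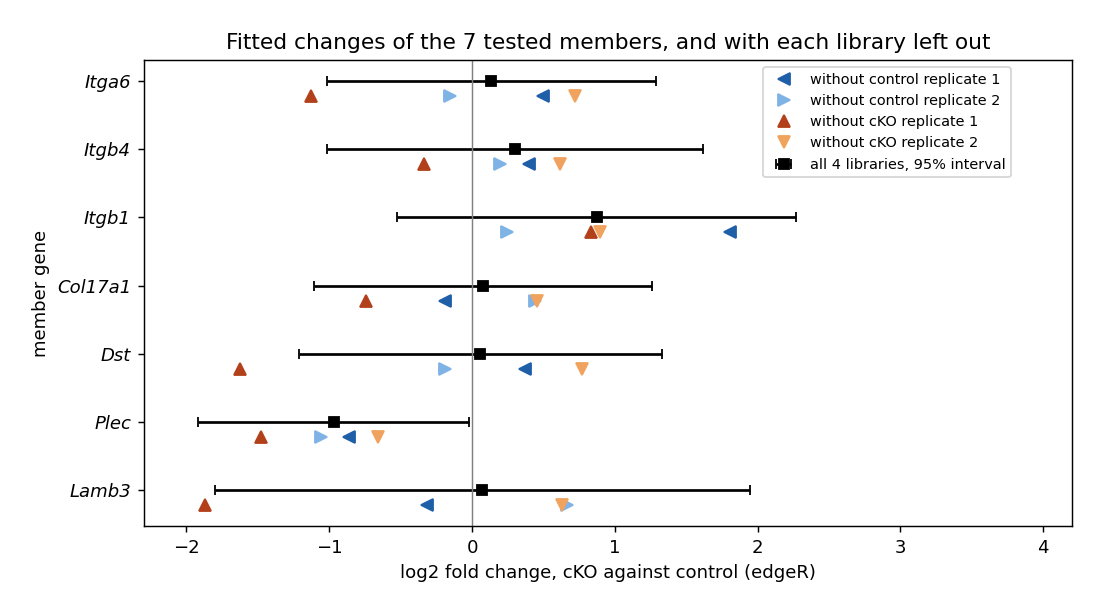
Log2 fold changes (cKO against control, edgeR) of the 7 tested members: squares are the fit on all 4 libraries with its 95% interval, triangles are the fits with 1 library left out. The interval of Plec alone lies below 0 (-1.92 to -0.024), and for Itga6, Itgb4, Col17a1, Dst and Lamb3 the value changes sign when cKO replicate 1 is left out.

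The gap between the cKO libraries was compared with that of other genes. On a log2 scale with 10 CPM added, cKO replicate 1 exceeded cKO replicate 2 by 2.30 for Dst, 1.81 for Lamb3, 1.74 for Itga6, 1.04 for Col17a1, 0.80 for Itgb4 and 0.75 for Plec, and the difference was 0.0098 for Itgb1. A larger excess was seen in 3.44% of tested genes for Dst, 5.61% for Lamb3 and 6.15% for Itga6, but in 22.7% for Plec and 50.4% for Itgb1. The Lamb3 value of cKO replicate 2 rested on 1 count. Its counting interval, 0.285 to 62.6 CPM, overlapped that of cKO replicate 1, 37 to 105 CPM. The median log2 difference of cKO replicate 2 from cKO replicate 1 was -1.04 over the 7 members and -0.024 over all tested genes. The members other than Itgb1 were thus lower in cKO replicate 2, by amounts that ranged from common (Plec, Itgb4) to uncommon (Dst) among tested genes.

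Gene length moved in the same direction. Genes with at least 5000 exon bases took 21.8% of the counts in cKO replicate 2, against 29.3% in cKO replicate 1 and 29.3% and 33.7% in the controls, and 8 of the 9 members are of that length. For genes of at least 10000 bases the median log2 difference between the cKO libraries (replicate 2 minus replicate 1) was -0.39. For genes of 5000 to 10000 bases, which include Itga6, Itgb4, Col17a1 and Lamb3, it was -0.18. It was 0.046 for 2000 to 5000 bases, 0.34 for 1000 to 2000 bases and 0.13 under 1000 bases. Per 1000 counts of genes with at least 5000 exon bases, the members still gave 3.33 counts in cKO replicate 2 and 8.69 in cKO replicate 1, with 7.84 and 5.38 in the controls. The lowest library was therefore the same on that scale, and the gap between the cKO libraries was smaller. The part of RNA quality in it was not tested.

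Relative to the basal keratins the members looked different from their share of the library. Krt5 and Krt14, whose proteins are the filaments that hemidesmosomes hold, together reached 6930.5 and 4282 CPM in cKO and 2311 and 2060 CPM in control. Per 100 counts of these keratins, the 9 members gave 41.8 counts (95% exact interval 38.3 to 45.7) in cKO replicate 1 and 22.6 (17.7 to 28.6) in cKO replicate 2. The controls gave 106 (93 to 121) and 90.5 (80.8 to 101), so the groups did not overlap. On that scale 6 of the 7 tested members (Itga6, Itgb4, Col17a1, Dst, Plec and Lamb3) were below both controls in both cKO libraries, but so were 71.6% of all tested genes, while 1.56% were above both controls, so the members' count on this scale is no result about them. Krt14 itself was higher in CPM in both cKO libraries than in both controls, as were 18.9% of all tested genes. The ratios to keratins, to long genes and to Trp63 were chosen after the values were seen.

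Relative to Trp63, the transcription factor of basal keratinocytes, the genotypes overlapped. Trp63 itself had cKO counts of 106 and 11 and control counts of 51 and 93, or 429 and 124 CPM against 272 and 297 CPM, the same order of libraries as for Col17a1 and Lamb3. Member counts per Trp63 count were 6.76 (95% exact interval 5.51 to 8.38) and 7.82 (4.16 to 16.2) in cKO and 9.02 (6.74 to 12.3) and 6.28 (5.04 to 7.9) in control. The intervals of all 4 libraries overlapped, and the gap between the cKO shares of the library was not seen on this scale. Trp63, with 8391 exon bases, is itself a long gene, like 8 of the 9 members. Krt15, another basal marker, differed the other way between the cKO libraries (841 CPM in replicate 1 and 1551 CPM in replicate 2). The part of gene length and of basal cell content in the gap was not tested. Trp63 had a log2 fold change of 0.029 (SE 0.52, edgeR adjusted p 0.998).

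**Figure D3:**
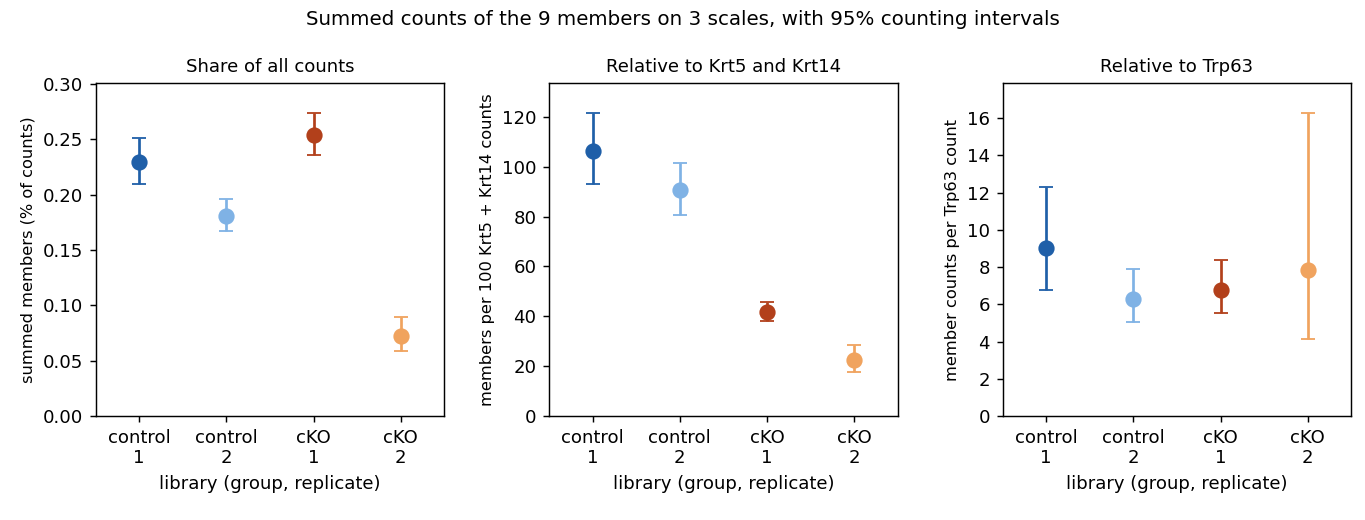
Summed counts of the 9 members in each library as a percentage of all counts (left), per 100 counts of Krt5 and Krt14 (middle) and per count of Trp63 (right), with 95% counting intervals. The cKO libraries are the highest and the lowest on the left, both below the controls in the middle (41.8 and 22.6 against 106 and 90.5), and overlap with the controls on the right. On the scale of the middle panel, 71.6% of all tested genes were also below both controls in both cKO libraries.

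The genes whose levels followed the summed members most closely across the 4 libraries were Rpl13, Itpr2, Phip, Pkn2 and Psap. The measure was the root mean square difference of centred log2 CPM, which was 0.074 for Rpl13, 0.090 for Itpr2, 0.10 for Phip, 0.11 for Pkn2 and 0.12 for Psap, among 1962 genes that averaged 100 CPM or more and had a count in every library. Itpr2 encodes a calcium release channel of the endoplasmic reticulum, and had cKO counts of 51 and 7 and control counts of 38 and 48. Rpl13, the closest, had cKO counts of 147 and 20 and control counts of 96 and 131. Itpr2, Phip and Pkn2 are long genes, with 14802, 33312 and 12877 exon bases, while Rpl13 has 2595 and Psap 2744. With 4 libraries, likeness of this kind describes these libraries only.

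Around the members, 120 genes of adhesion to the matrix were examined in 6 lists, of which 31 passed the count filter. By edgeR, 0 of the 31 were higher and 0 lower at an adjusted p under 0.05, against the background of 0.848%, and 8 had an unadjusted p under 0.05, where the background was 8.39%. With other tools, DESeq2 and limma-voom each called 1 gene, Krt14. The median log2 fold change of the 31 was 0.26, with 19 above 0 and 12 below, beside a median of 0.0070 with 2137 above 0 and 2106 below over all genes tested. The basal keratins differed in the sign of their fitted changes, and none passed the test. Krt14 had cKO counts of 1077 and 267 and control counts of 174 and 271, which gave 2.04 on the log2 scale (SE 0.44) and narrowly missed the threshold (edgeR adjusted p 0.0507). Its partner Krt5, with cKO counts of 637 and 114 and control counts of 259 and 374, was at 0.59 (adjusted p 0.842), and groups overlapped. Krt15, a keratin of basal and hair follicle stem cells, had cKO counts of 208 and 138 and control counts of 535 and 657, with a log2 fold change of -1.06 (adjusted p 0.526). Cd151, the tetraspanin of hemidesmosomes, had cKO counts of 9 and 5 and control counts of 4 and 6 and was under the filter.

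Among the other basement membrane genes, 4 of 32 were tested and 8 had no count in any library. Col7a1, the collagen of the anchoring fibrils beneath the hemidesmosome, had cKO counts of 37 and 8 and control counts of 78 and 86. The groups did not overlap in CPM, a separation that 19.6% of all tested genes showed in that direction. The log2 fold change of Col7a1 was -1.45 (SE 0.48, edgeR adjusted p 0.317, unadjusted p 0.00940). Of all tested genes, 8.39% had an unadjusted p under 0.05. Lad1, which encodes ladinin, an anchoring filament protein, was at 0.19 (adjusted p 0.992), with 12 and 104 counts in the controls. Sparc, a matrix protein made largely by fibroblasts, had cKO counts of 4 and 15 and control counts of 21 and 15, and its value of 0.0027 (adjusted p 0.999) was -2.22 without cKO replicate 2, the library with the highest fibroblast markers.

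Of 22 other integrin subunits, 2 were tested. Itgb8 had cKO counts of 17 and 7 and control counts of 6 and 2 (log2 fold change 2.03, edgeR adjusted p 0.590), and Itga2b, known from platelets, had 18 and 7 against 13 and 1 (1.19, adjusted p 0.873). Without control replicate 2 the values were 1.19 for Itgb8 and 0.13 for Itga2b, and without control replicate 1 they were 3.40 and 4.33. Itgb5 had cKO counts of 10 and 3 and control counts of 4 and 12, under the filter. Among the focal adhesion genes, 9 of 28 were tested. The actin crosslinker Actn4 was at 0.36 (adjusted p 0.942), talin Tln1, which activates integrins, at -0.83 (adjusted p 0.775), and tensin Tns4, which binds β1 tails, at 1.57 (adjusted p 0.494). Tln1 was at -0.36 without control replicate 1 and -1.20 without control replicate 2, and Tns4 at 2.38 and 0.98 in the same order. Ilk, the integrin-linked kinase, was singled out after its values were seen: it had cKO counts of 2 and 0 and 15 counts in each control library (adjusted p 0.363, unadjusted p 0.0129), too few to size its change.

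The matrix receptors included the syndecans, which bind matrix through heparan sulphate. Sdc4, the syndecan of focal adhesions, had cKO counts of 25 and 9 and control counts of 65 and 63, or -1.42 on the log2 scale (SE 0.49, edgeR adjusted p 0.359). Sdc1, the main syndecan of epidermis, was at 0.047 (adjusted p 0.997), and the hyaluronan receptor Cd44 at 0.71 (adjusted p 0.785), which was 1.24 without control replicate 1 and 0.32 without control replicate 2. Of the matrix proteases and their inhibitors, Adam10, a membrane sheddase, had cKO counts of 32 and 15 and control counts of 7 and 17 (log2 fold change 1.64, adjusted p 0.368). Timp3, an inhibitor of metalloproteases, had cKO counts of 4 and 28 and control counts of 23 and 19, a value of 0.68 (adjusted p 0.955) that was -2.43 without cKO replicate 2. Mmp14, a membrane-bound collagenase, was at -0.090 (adjusted p 0.997).

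**Figure D4:**
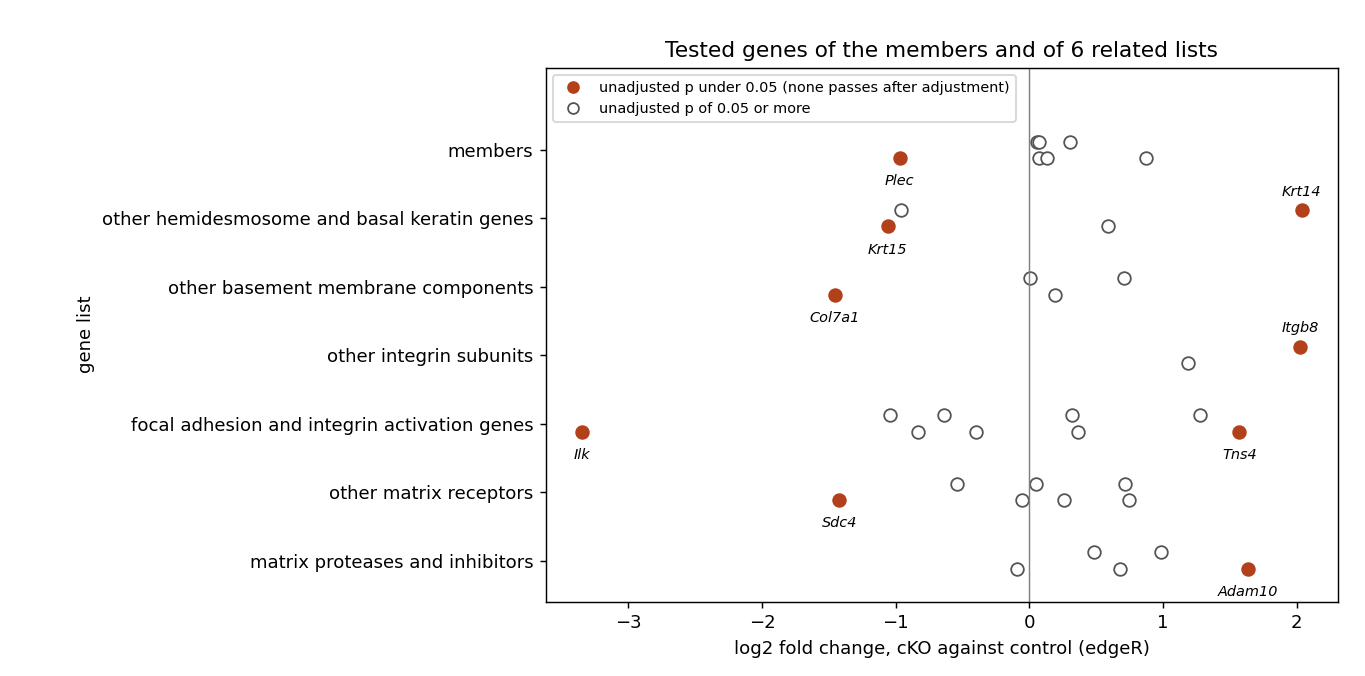
Log2 fold changes (cKO against control, edgeR) of the 7 tested members and of the 31 tested genes of 6 related lists, 1 point per gene. Filled points have an unadjusted p under 0.05 and are named; 0 genes pass after adjustment over all genes tested, and Plec is the only filled point among the members.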

How the data were processed

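The authors deposited 1 table of raw counts per gene for 4 libraries (2 cKO, 2 control) of a 3' transcriptome kit, and 0 per-sample columns were left unused. Per the submitters' processing notes, Trim Galore 0.6.7, Trimmomatic 0.39, cutadapt 3.7, STAR 2.7.10a, featureCounts 2.0.1 and GRCm39 were used. The use of strand and of molecular identifiers and the handling of reads with several alignments are not given in the sources used here. Libraries were grouped by their titles. In edgeR 4.0.16 (R 4.3.3), filterByExpr (at least 10 counts per library at the typical depth, 15 in total) kept 4243 genes holding 87.6% of the counts, which were scaled with TMM (factors 0.833 to 1.12) and tested for genotype with glmQLFit and glmQLFTest, Benjamini-Hochberg threshold 0.05. The script was tested on simulated data. Standard errors are the log2 fold change over the root of F, and 95% intervals use the test's degrees of freedom. Single counts have exact Poisson intervals, shares Wilson intervals and ratios exact binomial intervals. Alternatives were other scalings, other filters, DESeq2 1.42.0, limma-voom (limma 3.58.1), a block on replicate number and each library left out. The members and lists were chosen with earlier results of these data known. Named were all members, Stim1, Stim2, called genes of the 6 lists, the 3 genes of each list with the highest mean CPM, and the 5 genes most like the summed members. Cd151, Ilk, Trp63, Parp10 and the marker genes were added after their values were seen. A gene of the lists is not reported here.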

Additional observations from a re-analysis of the deposited data

How the results depend on the processing

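The count of members called was 0 in each direction under each alternative run. Plec stayed negative in all of them, from -1.17 with library totals only to -0.97 with DESeq2 size factors, and from -1.48 to -0.66 with a library left out. Of 63 member values under alternatives that kept all libraries, 51 kept their direction and their side of the threshold, and 12 changed sign without passing it. Depth limits the members most in cKO replicate 2, where 7 of them had at most 15 counts.

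Over all genes, 28 were higher and 8 lower in cKO. The counts were 49 and 26 without a count filter, and 12 and 3 with limma-voom, and 15 genes were lower under a 10 CPM mean filter. With a library left out, 34 to 59 genes were higher and 8 to 34 lower. With the replicate number as a block (replicate block), 16 genes were higher and 1 lower. The labels do not say that a number marks a shared day or litter, and same-numbered libraries deviated in opposite directions (r = -0.20 across 4243 genes, which are not independent). With crossed numbers, an alternative chosen after seeing the data, 90 genes were higher and 57 lower. Of the 6 lists, 1 gene (Krt14) was called higher without a count filter, under a 10 CPM mean filter, with DESeq2, with limma-voom and without cKO replicate 2, and 1 (Ddr2) without cKO replicate 1, a range of 0 to 1 over libraries left out. With crossed numbers 1 was higher (Krt14) and 2 lower (Krt15, Col7a1).

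Library totals only moved the median log2 fold change of all tested genes by -0.21. Under that scaling Itga6 was at -0.037, Col17a1 at -0.12, Dst at -0.10, Lamb3 at -0.11, Lad1 at -0.043, Sparc at -0.26 and Sdc1 at -0.21, the first 5 of them above the shifted median. Without the 20 most abundant genes in the library sizes, Dst was at -0.0051, Sparc at -0.084 and Sdc1 at -0.030. With the replicate block, Itga6 was at -0.11, Dst at -0.34, Lamb3 at -0.099 and Sparc at -0.27, and with crossed numbers Dst was at -0.20, Lamb3 at -0.15 and Sparc at -0.29. With limma-voom, Itga6 was at -0.032, Dst at -0.30, Sparc at -1.53 and Timp3 at -1.48. Sparc was at -0.12 and Sdc1 at -0.062 without a count filter, and -0.064 and -0.015 under a 10 CPM mean filter. The cause of these sign changes was not tested.

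With a library left out, the values ran as follows: Itga6 -1.13 to 0.72, Itgb4 -0.33 to 0.62, Col17a1 -0.74 to 0.45, Dst -1.62 to 0.77, Lamb3 -1.87 to 0.66, Krt5 -0.051 to 1.01, Sparc -2.22 to 1.08, Lad1 -0.51 to 1.86, Sdc1 -0.32 to 0.33, Timp3 -2.43 to 1.77.
The difference in the Itgb4 to Itga6 log2 ratio ran from -0.14 to 0.76.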
